A study of Mus musculus with 2 samples.

Results

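The genes of major histocompatibility complex (MHC) class II presentation were followed across the cells of inflamed mouse ear skin. The 9 members were taken by name from the 35208 gene rows of a single-cell RNA sequencing matrix, and all 9 had reads. They are H2-Aa and H2-Ab1 (the chains of I-A), H2-Ea and H2-Eb1 (the chains of I-E), Cd74 (the invariant chain), H2-DMa, H2-DMb1 and H2-DMb2 (the chains of H2-DM), and Ciita (the class II transactivator). Ear skin cells came from BALB/c mice that were wild-type (WT) or Ccr2-/-, the latter lacking the chemokine receptor by which classical monocytes are recruited. All animals were male, aged 7 to 12 weeks by the study's methods, and all had IgE-mediated chronic allergic inflammation, for which they received 300 µg of an IgE antibody to the hapten TNP intravenously and, 1 day later, 10 µg of TNP-coupled ovalbumin in the ear. Cells were taken on day 3 or day 5, labelled with one hashtag antibody per genotype and day, pooled, and sequenced as 1 library. Each of the 4 groups was therefore 1 pool, for which the sources used here do not give the number of mice. No unchallenged skin was analysed here, so the levels below are levels during inflammation, and the Ccr2 deletion was present in every cell of a mouse.

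Class II molecules carry peptides from material taken up by a cell to its surface, where CD4 T cells read them. The alpha and beta chains assemble with the invariant chain, which fills the groove until proteases trim it, and H2-DM then exchanges the remaining fragment for peptide. Transcription of these genes is set largely by CIITA, a coactivator that binds no DNA itself but is held at class II promoters by factors on the S, X and Y boxes. Dendritic cells (DCs) and B cells carry class II constitutively. Monocytes and macrophages carry variable amounts and can raise them during inflammation, and most stromal cells carry little.

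In the GENCODE M21 annotation of the GRCm38.p6 build, 7 of the 9 genes lie on chromosome 17, where H2-DMa spans bases 34119541 to 34139101, H2-DMb2 34143307 to 34151555, H2-DMb1 34153072 to 34160230, H2-Ab1 34257689 to 34269419, H2-Aa 34282744 to 34287823, H2-Eb1 34305867 to 34316674 and H2-Ea 34341959 to 34344645. Ciita lies on chromosome 16 (10480059 to 10528418), outside the MHC. H2-Ea is annotated as a polymorphic pseudogene because the C57BL/6 reference strain does not express it, whereas BALB/c mice do.

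The promoters of an alpha-chain gene and a beta-chain gene are shown because the members' levels moved together across the cells described below. Each sequence is the 150 bases before the RefSeq start site on the gene's own strand, in capitals where a motif was found on either strand: the Y box core ATTGG, the letters TGATGA of the X2 box, and TGACGT, the part of the X2 box that resembles a cyclic AMP response element.
H2-Aa (chr17:34287824-34287973, minus strand): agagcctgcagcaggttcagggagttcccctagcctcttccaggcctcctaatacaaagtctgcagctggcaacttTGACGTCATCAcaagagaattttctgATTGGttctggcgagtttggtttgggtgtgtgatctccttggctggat
H2-Eb1 (chr17:34305717-34305866, plus strand): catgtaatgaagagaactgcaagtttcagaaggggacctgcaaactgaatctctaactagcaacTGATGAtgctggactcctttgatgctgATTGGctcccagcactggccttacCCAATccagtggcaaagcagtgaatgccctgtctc
In the H2-Aa window the matches of both X2 motifs overlap one another across the strands, and the second ATTGG match of H2-Eb1 is on its minus strand. Both windows hold ATTGG downstream of the X2 letters. H2-DMb1 had the same order of TGATGA and ATTGG, H2-DMb2 had ATTGG without TGATGA, and neither start site of H2-DMa had any of these letters in its window. Of all 32851 RefSeq promoter windows of this length, 24.5% held ATTGG or its reverse, 6.45% TGATGA or its reverse and 5.15% TGACGT or its reverse, so a match alone is common.

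Of 8953 cell barcodes with 548117598 reads, 7118 were kept with a single hashtag: 1543 from WT day 3, 1037 from WT day 5, 2191 from Ccr2-/- day 3 and 2347 from Ccr2-/- day 5. Values are reads of a gene per 1000000 reads, summed over the cells of a type in a pool (CPM). Reads were not collapsed to molecules, so 1 strongly amplified or very large cell can carry a sum, and the share held by the largest cell is given where it matters. The median cell had 18632 reads in the Ccr2-/- day 5 pool and 34410 to 48232 in the others. Ccr2 reads, the check of the genotype labels, stood at 942 and 688 CPM in the monocyte- and macrophage-like (Mo-Mac-like) cells of WT day 3 and day 5, and at 79.0 and 28.9 CPM in those of Ccr2-/- day 3 and day 5. The separation was smaller in DC-like cells, at 840 and 852 CPM in the WT pools and 136 and 148 in the Ccr2-/- pools. Cell types were named from marker genes after clustering without the 9 members. By the naming rule, 5 of the 11 DC markers stood out in the DC-like cluster and 8 and 6 of the 9 Mo-Mac markers in the Mo-Mac-like clusters, although each type had some reads of every marker of its own list in each pool.

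Over all kept cells the summed level of the 9 genes was 6204 CPM on WT day 3, 7756 on WT day 5, 1126 on Ccr2-/- day 3 and 2116 on Ccr2-/- day 5. Both WT pools lay above both Ccr2-/- pools, with a mean of 6980 against 1621 CPM, a ratio of 4.31. The exact two-sided permutation test over the 6 splits of the pools gave p = 0.333, the smallest that 2 pools against 2 allow. In such a sum, fewer class II-bearing cells and less class II RNA per cell cannot be told apart, so the levels were taken apart by cell type.

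DC-like cells stood first in every pool. Their summed level was 54115 CPM on WT day 3, 61533 on WT day 5, 52273 on Ccr2-/- day 3 and 58189 on Ccr2-/- day 5, so that more than 5% of all their reads came from these 9 genes. B cell-like cells followed at 33431 CPM on WT day 3, 32147 on Ccr2-/- day 3 and 36411 on Ccr2-/- day 5, from 3, 5 and 8 cells, with none on WT day 5. The ranges of these types did not overlap. Plasmacytoid DC-like cells came next, from 3495 CPM on WT day 3 to 11224 on Ccr2-/- day 3, a range that overlapped that of Mo-Mac-like cells, from 2131 on Ccr2-/- day 3 to 10246 on WT day 3. Every other type had a median over the pools of 1239 CPM or less, and these types overlapped one another. Because a cell type is a cluster of the same cells, these orders are descriptions and carry no test.

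**Figure D1:**
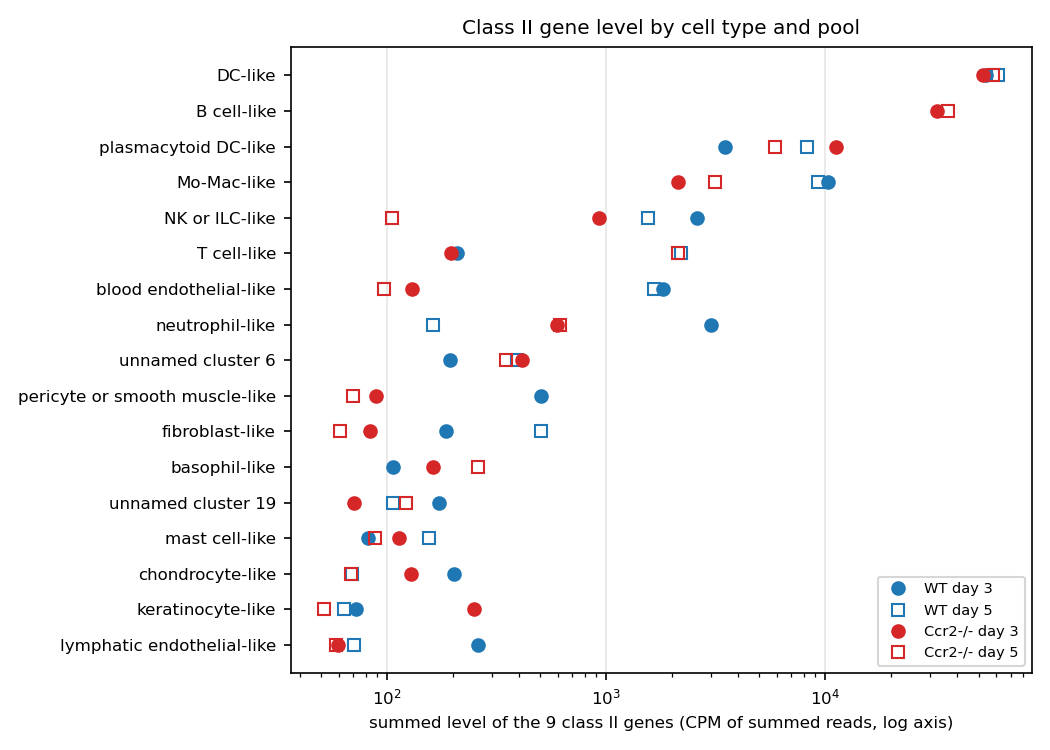
Summed level of the 9 class II genes (CPM of summed reads, log axis) in each cell type, with 1 point per pool that had at least 5 cells of it. DC-like cells lay at 52273 to 61533 CPM in all 4 pools, while the Mo-Mac-like points split by genotype, with 10246 and 9278 CPM in the WT pools and 2131 and 3146 in the Ccr2-/- pools.

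The makeup of each pool's class II reads differed with genotype. In the WT pools, Mo-Mac-like and DC-like cells held nearly equal parts: Mo-Mac-like cells held 49.1% and 47.0% of the reads of the 9 genes on day 3 and day 5, and DC-like cells 46.0% and 48.6%. In the Ccr2-/- pools Mo-Mac-like cells held 12.4% and 7.25%, and DC-like cells 72.4% and 84.5%. By number, Mo-Mac-like cells accounted for 32.1% and 44.7% of WT cells but 6.16% and 4.09% of Ccr2-/- cells. DC-like cells were 5.64% and 6.56% of the WT cells and 1.73% and 2.94% of the Ccr2-/- cells. These are shares within single pools, and part of each follows from the number of neutrophil-like cells, which were 3.44% and 0.579% of the WT cells and 18.6% and 34.2% of the Ccr2-/- cells.

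In DC-like cells the values of the genotypes overlapped for 8 of the 9 members. H2-Aa was at 11798 CPM on WT day 3, 14649 on WT day 5, 10902 on Ccr2-/- day 3 and 12936 on Ccr2-/- day 5. Its partner H2-Ab1 was at 10400, 11493, 10099 and 11078 CPM in the same order (day 3 then day 5 of WT, then of Ccr2-/-), which is called pool order below. Both genotypes spanned overlapping ranges for these I-A chains, with the day 5 pool above the day 3 pool in each genotype. The I-E chains behaved alike in range: H2-Ea was at 7102, 8572, 7319 and 7723 CPM and H2-Eb1 at 6532, 7241, 6162 and 7141 CPM. Cd74, which like Ciita lies outside the MHC (chromosome 18, 60803848 to 60812652), was at 15220, 17039, 15108 and 16343 CPM, the narrowest spread of the 9 members relative to its level.

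The peptide-loading and control genes of DC-like cells also overlapped between genotypes, apart from H2-DMb2. H2-DMa was at 899, 755, 775 and 814 CPM and H2-DMb1 at 1536, 1271, 1261 and 1458 CPM, again in pool order. H2-DMb2 was at 321, 253, 356 and 387 CPM, the one member whose Ccr2-/- pools both lay above both WT pools. Ciita was at 308, 259, 290 and 309 CPM. An edgeR quasi-likelihood fit over the 4 pools with genotype and day as terms called none of the 9 members for genotype in DC-like cells, where 2 of 12570 genes (0.0159%) were called, 1 of them lower (0.00796%). The log2 differences, Ccr2-/- minus WT, ran from -0.14 (standard error, SE, 0.092) for H2-Aa to 0.39 (SE 0.22) for H2-DMb2, and the adjusted p-values were 0.728 or higher. All 9 also had unadjusted p-values above 0.1. A p-value above the threshold does not show equal levels, and the ratios themselves are the measure here: Ccr2-/- over WT lay between 0.821 and 1.53 in the 18 pairings of member and day. No member was called for day in DC-like cells either.

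In Mo-Mac-like cells every member was lower in both Ccr2-/- pools than in both WT pools. H2-Aa was at 2272 CPM on WT day 3 and 2276 on WT day 5, against 455 on Ccr2-/- day 3 and 652 on Ccr2-/- day 5. H2-Ab1 was at 1820 and 1570 CPM in the WT pools and 388 and 556 in the Ccr2-/- pools. The I-E chains showed the same split, with H2-Ea at 1222 and 1195 against 252 and 385 CPM, and H2-Eb1 at 1008 and 878 against 228 and 345 CPM. Cd74 was at 3463 and 2973 CPM in the WT pools and at 727 and 1091 in the Ccr2-/- pools. For all 5 the higher Ccr2-/- value was that of day 5, and the ratio of Ccr2-/- to WT of the same day ran from 0.200 to 0.393.

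The lower-level members moved in the same direction. H2-DMa was at 216 and 187 CPM in the WT pools and 56.7 and 53.4 in the Ccr2-/- pools. H2-DMb1 was at 188 and 146 CPM against 15.9 and 51.3, and H2-DMb2 at 28.4 and 22.4 against 4.70 and 10.5. Ciita was at 30.0 and 30.6 CPM in the WT pools and at 4.23 and 1.66 in the Ccr2-/- pools. The Ciita values of the Ccr2-/- pools rested on few cells: 1 cell held 46.7% of its reads on day 3 and 75% on day 5, against 6.52% and 5.62% in the WT pools.

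**Figure D2:**
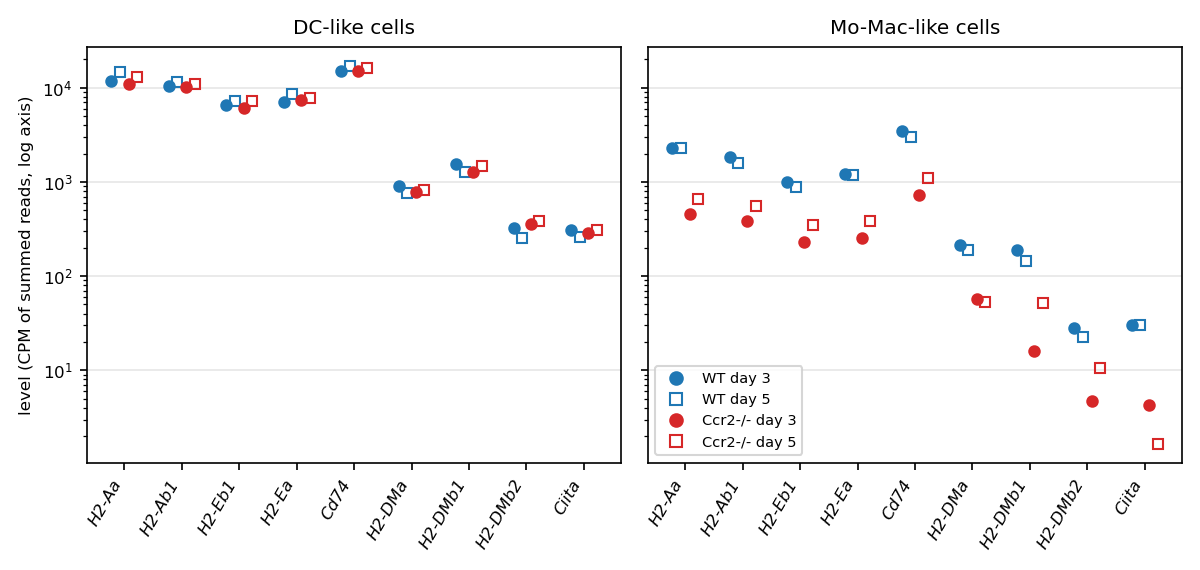
Level of each member (CPM of summed reads, log axis) in DC-like cells (left) and Mo-Mac-like cells (right), with 1 point per pool and no error bars because each group is 1 pool. In DC-like cells the points of both genotypes overlap for 8 genes and H2-DMb2 has its Ccr2-/- points on top, whereas in Mo-Mac-like cells both Ccr2-/- points lie below both WT points for all 9 genes.

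The same fit in Mo-Mac-like cells put 7 of the 9 members at an adjusted p under 0.05 for genotype, all lower in Ccr2-/-, where 55 of 16467 genes were lower by this rule (0.334%) and 122 differed in either direction (0.741%). Their log2 differences were -2.01 for H2-Aa (SE 0.18, adjusted p = 0.0186), -1.91 for H2-Ea (SE 0.20, adjusted p = 0.0240), -1.82 for H2-DMa (SE 0.19, adjusted p = 0.0240) and -1.82 for H2-Ab1 (SE 0.20, adjusted p = 0.0271). Cd74 differed by -1.80 (SE 0.21, adjusted p = 0.0282), H2-Eb1 by -1.70 (SE 0.22, adjusted p = 0.0285) and Ciita by -3.38 (SE 0.46, adjusted p = 0.0350). H2-DMb1 and H2-DMb2 were not called, at -2.46 (SE 0.46, adjusted p = 0.0733) and -1.78 (SE 0.45, adjusted p = 0.124). The median over the 9 members was -1.82 and that over all genes tested -0.03. The fit left 1 residual degree of freedom, the departure of the pools from additive genotype and day terms, with information on spread shared across genes. No pool was replicated, so its p-values measure neither the spread between like pools nor that between mice.

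These calls depended on the most deeply read cells, while the direction held in the 7 settings given below. Without cells of more than 100000 reads, 0 of the 9 members and 0 genes in all were called by edgeR for genotype in Mo-Mac-like cells, and without the cell that held most class II reads in each pool 2 of the 9 were called. That largest cell held 29.1% of the reads of the 9 genes on Ccr2-/- day 3 and 16.7% on Ccr2-/- day 5, against 2.72% and 2.96% in the WT pools. Under 7 settings of hashtag assignment, clustering, cell weight and cell selection, Ccr2-/- over WT was below 1 in 18 of 18 pairings of member and day. The ratio of the summed level, WT over Ccr2-/- as a geometric mean over the days, was 3.77 as reported here and lay between 3.28 and 4.71 in the other 6. A further setting, equal weights for the clusters of these cells, gave smaller ratios and turned the direction of single members. It is described with the clusters.

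Whether the genotype difference itself was unequal in Mo-Mac-like and DC-like cells was tested in 1 edgeR fit over the 8 sums with the pool as a block. No gene of 14746 passed (0%), and 1320 had an unadjusted p-value under 0.05, among them all 9 members. The members' extra log2 difference in Mo-Mac-like cells ran from -1.70 for H2-Eb1 (SE 0.22) to -3.49 for Ciita (SE 0.45), with adjusted p-values from 0.0596 to 0.107. The larger genotype difference of Mo-Mac-like cells therefore missed the threshold in these 4 pools.

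The sums hide wide differences among single cells. The median DC-like cell had 54262 CPM of the 9 genes on WT day 3, 63533 on WT day 5, 52466 on Ccr2-/- day 3 and 57584 on Ccr2-/- day 5, and 94.1% to 95.7% of DC-like cells had more than 10000 CPM. Mo-Mac-like cells instead spread over more than 3 orders of magnitude. Their median cell had 2110 CPM on WT day 3, 1945 on WT day 5, 93.8 on Ccr2-/- day 3 and 242 on Ccr2-/- day 5. Cells above 10000 CPM made up 31.3% of them on WT day 3 (exact 95% interval 27.2 to 35.6, 155 of 495 cells) and 30.2% on WT day 5 (26.0 to 34.6, 140 of 464). They made up 5.93% on Ccr2-/- day 3 (2.59 to 11.3, 8 of 135) and 14.6% on Ccr2-/- day 5 (8.21 to 23.3, 14 of 96). Such intervals cover the counting of cells only, not the difference between mice. The median fibroblast-like cell, for comparison, was at 43.6 to 49.7 CPM. The median Mo-Mac-like cell had 56246 and 58703 reads in the Ccr2-/- pools and 45415 and 46023 in the WT pools. The part of depth in the difference was not tested.

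**Figure D3:**
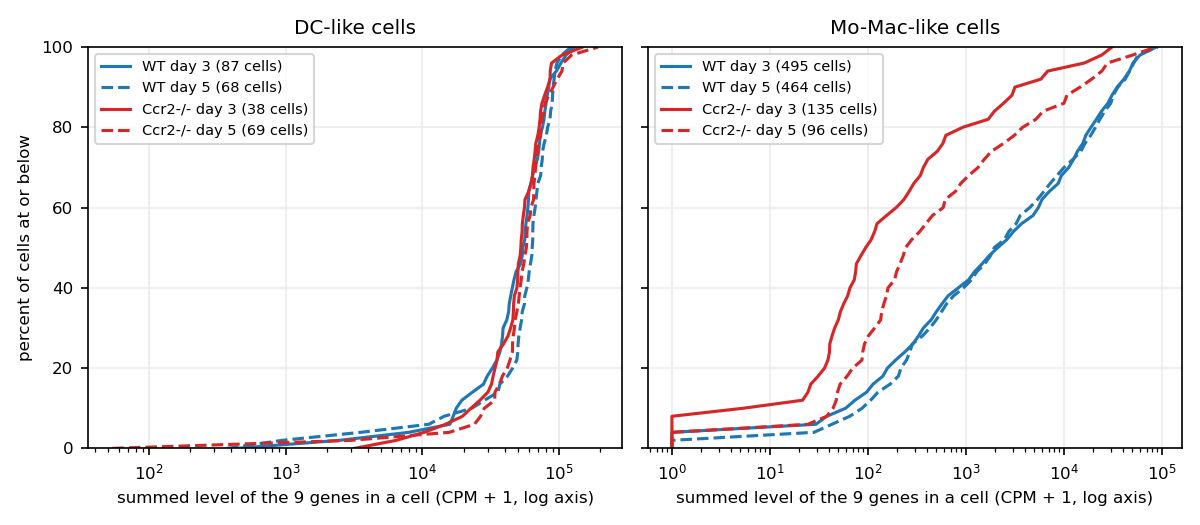
Cumulative percent of cells (vertical axis) at or below a given summed level of the 9 genes (CPM + 1, log axis) for DC-like and Mo-Mac-like cells, with 1 line per pool. The 4 DC-like lines rise together near their medians of 52466 to 63533 CPM, while the Mo-Mac-like lines of the WT pools coincide and those of the Ccr2-/- pools lie to their left, with medians of 93.8 and 242 CPM against 2110 and 1945.

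Ciita, as a regulator read at a low level, was compared after thinning every cell to 10000 reads. It had a read in 64.7% of DC-like cells on WT day 3, 57.6% on WT day 5, 54.1% on Ccr2-/- day 3 and 66.2% on Ccr2-/- day 5. In Mo-Mac-like cells the shares were 10.4%, 10.9%, 2.52% and 1.16% in the same order. In fibroblast-like cells, which serve as the background, they were 1.10%, 0.687%, 0.513% and 0.167%, and there Cd74, by contrast, had a read in 14.7% to 19.0% of cells. The Ccr2-/- day 5 share of Mo-Mac-like cells lay near the highest background share, that of WT day 3, and above the 0.167% of its own pool. It rests on 1 cell, so neither nearness to the background nor a difference from it can be read. The Ccr2-/- day 3 share rests on few cells too. Unthinned, the Mo-Mac-like shares with a Ciita read were 13.7%, 18.5%, 3.70% and 4.17%.

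Within Mo-Mac-like cells Ciita reads went with those of the other 8 members. Among the 508 thinned cells with fewer than 10 reads of the other 8 genes, 1.18% had a Ciita read (exact 95% interval 0.435 to 2.55). The share was 4.59% (2.47 to 7.73) of the 283 cells with 10 to 99 such reads and 26.8% (21.8 to 32.2) of the 295 cells with 100 or more. DC-like cells with 100 or more such reads had Ciita in 65.0% of 240 cells (58.6 to 71.0), above the Mo-Mac-like cells of this class. The class has no upper limit, so it does not match the types in class II level. The median DC-like cell was at 52466 CPM or more in every pool. The 90th percentile of WT Mo-Mac-like cells was at 34981 CPM on day 3 and 35557 on day 5. Whether Ciita differs between the types at equal class II level was not tested. Among Mo-Mac-like cells of this class, the share with Ciita in the WT pools was 28.1% of 146 cells and 28.7% of 129. In the Ccr2-/- pools it was 1 of 8 cells (12.5%, 0.316 to 52.7) and 0 of 12 (up to 26.5%). Both lay below both WT shares, with intervals that overlap those of the WT pools (21.0 to 36.1 and 21.1 to 37.3).

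Mo-Mac-like and DC-like cells were clustered again to see which of them carried class II. Ccr7 migratory DC-like cells were at 55993, 62226, 53062 and 58857 CPM in pool order. Type 1 conventional DC-like (cDC1-like) cells, the cross-presenting type, were at 56451, 57870, 56706 and 55793 CPM from 17, 20, 7 and 19 cells. A cluster led by S100a9 and Clec4b1, which no fixed marker list named, came next, at 33814 CPM on WT day 3 (65 cells), 32138 on WT day 5 (72 cells) and 37609 on Ccr2-/- day 3 (5 cells). On Ccr2-/- day 5 it was at 8529 CPM in sum but 18649 CPM in its median cell of 7, with 68.3% of the reads in 1 cell. Such cells were 4.21% and 6.94% of the WT cells and 0.228% and 0.298% of the Ccr2-/- cells.

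The remaining clusters were mixed. Early classical monocyte-derived macrophage-like (early CMDM-like) cells were at 5412 CPM on WT day 3 (138 cells), 5642 on WT day 5 (7 cells), 2677 on Ccr2-/- day 3 (42 cells) and 7190 on Ccr2-/- day 5 (31 cells), so that the sums of the genotypes overlapped. Their median cell was at 1740 and 3454 CPM in the WT pools and at 329 and 805 in the Ccr2-/- pools, and in this measure the genotypes did not overlap. A cluster led by the interferon-stimulated genes Rsad2 and Ifit1 was left unnamed, although 3 of the 5 markers of its best list, late CMDM, stood out. It was at 7855 and 5433 CPM in the WT pools, and 1 cell was found in the Ccr2-/- pools. A cluster led by Atp6v0d2 and Lpl, a proton pump subunit and lipoprotein lipase, was at 13458 CPM on WT day 3 (45 cells), 7059 on WT day 5 (193 cells) and 2591 on Ccr2-/- day 5 (9 cells), with 1 cell on Ccr2-/- day 3. Its median cell was at 5597, 1426 and 2335 CPM in these pools, so by this measure the genotypes overlapped. A cluster of shallow cells, led by Gm24270 and Gm23935, was at 15144, 7963, 4994 and 27764 CPM in pool order, with 66.8% and 76.1% of the reads of the Ccr2-/- pools in 1 cell. Its median cell was at 2809, 2800, 42.6 and 1493 CPM. A cluster led by Coch and Tnmd was at 10792 and 2837 CPM in the WT pools (13 and 16 cells) and at 81.3 and 562 in the Ccr2-/- pools (5 and 4 cells). Its median cell was at 5239, 2146, 50.4 and 848 CPM in pool order. Monocyte-like cells were at 12269 CPM on WT day 3 (112 cells), 47639 on WT day 5 (15 cells), 2449 on Ccr2-/- day 3 (8 cells) and 25725 on Ccr2-/- day 5 (6 cells, 76.6% of the reads in 1 of them). Their median cell was at 810, 35591, 371 and 650 CPM in pool order. As in the shallow and the Coch and Tnmd clusters, both Ccr2-/- medians lay below both WT medians. A cluster led by Lyve1 was at 8993 and 4779 CPM in the WT pools and at 1851 and 406 in the Ccr2-/- pools, where 1 cell held 54.1% and 69.0% of its reads. In its median cell the level was 448, 519, 62.0 and 128 CPM, so the genotypes did not overlap in this measure either. Sums and median cells thus ordered the pools differently in some of these clusters.

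**Figure D4:**
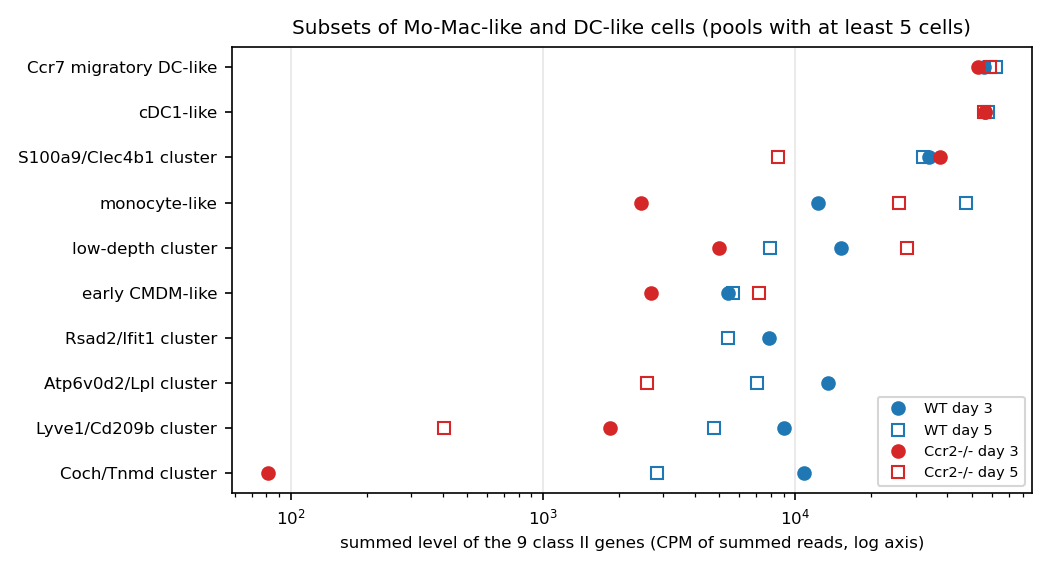
Summed level of the 9 genes (CPM of summed reads, log axis) in the clusters of Mo-Mac-like and DC-like cells, with 1 point per pool that had at least 5 cells. The DC-like clusters lie at 53062 to 62226 CPM in every pool, and among the others the sums of the genotypes overlap in early CMDM-like cells, whose median cells do not, and separate in the Lyve1 cluster, at 8993 and 4779 CPM against 1851 and 406.

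The clusters were not equally filled in the genotypes, which bears on the Mo-Mac-like sums. The Lyve1 cluster held 8.48% and 10.1% of the WT Mo-Mac-like cells and 43.0% and 31.3% of the Ccr2-/- ones. The Atp6v0d2 and Lpl cluster held 8.89% and 41.6% of the WT ones against 0.741% and 9.38%. The S100a9 and Clec4b1 cluster, high in class II, held 9.09% and 13.8% of the WT ones against 1.48% and 3.1%. Equal weight was given to the 4 clusters with at least 5 Mo-Mac-like cells in every pool (early CMDM-like, monocyte-like, Lyve1 and shallow cells). The summed level was then 10051 CPM on WT day 3, 15409 on WT day 5, 2993 on Ccr2-/- day 3 and 10500 on Ccr2-/- day 5. Each Ccr2-/- pool stayed below the WT pool of its day, but Ccr2-/- day 5 lay just above WT day 3, and the WT over Ccr2-/- ratio was 2.22 in place of 3.77. The Ccr2-/- day 5 value gives full weight to the 6 monocyte-like cells, of which 1 held most of the class II reads. H2-DMb2 was at 30.8 and 45.0 CPM in the WT pools and 32.8 and 7.92 in the Ccr2-/- pools, so on day 3 it was not lower in Ccr2-/-. That Ccr2-/- day 3 value rests mostly on 9 reads in 8 monocyte-like cells and 14 reads in 19 shallow cells. Counting the DC-like cells of these clusters as well added the S100a9 and Clec4b1 cluster, which holds 5 cells on Ccr2-/- day 3. The levels became 15126, 19632, 9916 and 13923 CPM in pool order, a ratio of 1.47. H2-DMb2 was then higher in Ccr2-/- on both days, at 48.8, 58.5, 50.6 and 71.8 CPM in pool order. Ciita was higher in Ccr2-/- on day 3 only, at 45.7, 61.4, 63.8 and 1.06 CPM. Its Ccr2-/- day 3 value rests mostly on 81 reads in the 5 cells of the S100a9 and Clec4b1 cluster. Both settings left out the other clusters, among them the Atp6v0d2 and Lpl cluster, so they mix weighting with the dropping of cells. What part the filling of the clusters has in the genotype difference was not tested.

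Outside the phagocytes, sums that differed between pools rested on few cells. Blood endothelial-like cells were at 1805 and 1655 CPM in the WT pools and 129 and 96.8 in the Ccr2-/- pools, but their median cell was at 64.0, 57.0, 43.6 and 48.0 CPM. In the WT pools 7 of 86 and 3 of 35 cells had more than 1000 CPM and held 93.0% and 95.9% of the reads. In those cells the Mo-Mac and DC marker genes summed to 4062 and 12464 CPM, against 661 and 2159 in the other WT endothelial-like cells. The B cell markers summed to 700 CPM in those of WT day 3 against 0 in the others, and to 0 against 1.57 CPM on WT day 5. The part of these cells in the result was not tested. edgeR called 3 of the 8 members tested lower in Ccr2-/-, where 5 of 12902 genes were (0.0388%, and 0.0543% in either direction): Cd74 (log2 difference -4.39, adjusted p = 0.0182), H2-Ea (-5.02, adjusted p = 0.0224) and H2-Aa (-3.99, adjusted p = 0.0474). Without the cell with most class II reads in each pool, 1 was called. For day, none of the 8 was called, where 2 genes were, both lower on day 5 (0.0155%).

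T cell-like cells differed by day in their sums. They were at 207 CPM on WT day 3 and 196 on Ccr2-/- day 3, against 2200 on WT day 5 and 2129 on Ccr2-/- day 5. edgeR called 5 of the 8 members tested higher on day 5, namely Cd74, H2-Aa, H2-Ab1, H2-Ea and H2-Eb1, where 9 of 10251 genes (0.0878%) were called. For genotype none of the 8 was called there, and 1 gene was, lower in Ccr2-/- (0.00976%). On each of the day 5 pools 1 cell held 94.4% and 91.0% of the class II reads, and without it no member was called and H2-Aa, H2-Ab1 and H2-Ea were lower on day 5. The median T cell-like cell was at 42.7, 78.7, 54.5 and 65.7 CPM. In natural killer or innate lymphoid-like cells, at 2606, 1551, 927 and 105 CPM, 1 cell held 71.8%, 89.7%, 87.3% and 8.92% of the reads.

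Fibroblast-like cells, the most numerous stromal type, were at 185 CPM on WT day 3, 506 on WT day 5, 83.2 on Ccr2-/- day 3 and 60.7 on Ccr2-/- day 5. None of the 9 members was called by edgeR for genotype, where 0 of 20254 genes (0%) were called and 4346 had an unadjusted p-value under 0.05. All 9 had one, with log2 differences from -1.22 for H2-DMb2 (SE 0.43) to -2.78 for H2-DMb1 (SE 0.46) and adjusted p-values from 0.111 to 0.220. DESeq2 called 2 members. Without cells over 100000 reads, Ccr2-/- over WT was below 1 in 16 of the 18 pairings of member and day (highest 1.56), and with the mean of the cells' CPM in 17 (highest 1.67). The median fibroblast-like cell was at 49.7, 48.2, 43.6 and 45.5 CPM, and the 12 of 316 cells above 1000 CPM held 88.7% of the class II reads of WT day 5. Those 12 cells had a median of 16881 reads, against 68949 in the others, and Mo-Mac and DC markers at 1261 against 238 CPM. Their part in the result was not tested.

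Basophil-like cells, for which class II presentation has been discussed in allergy, were at 106 CPM on WT day 3, 104 on WT day 5 (2 cells), 162 on Ccr2-/- day 3 and 259 on Ccr2-/- day 5. No Ciita read was found in any of their pools. A floor of 3 reads allows up to 4.60 CPM on WT day 3, 38.9 on WT day 5, 1.92 on Ccr2-/- day 3 and 2.29 on Ccr2-/- day 5, against 259 to 309 CPM in DC-like cells. Mast cell-like cells were at 81.7, 156, 114 and 88.0 CPM in pool order.

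Neutrophil-like cells of the Ccr2-/- pools carried class II reads of another makeup. Their summed level was 596 CPM on Ccr2-/- day 3 and 615 on Ccr2-/- day 5, with 4.36% and 4.08% of the reads in the largest cell, and 87 of 407 and 139 of 803 cells had more than 1000 CPM. H2-Eb1 was at 192 and 161 CPM and H2-Ea, its partner in I-E, at 10.2 and 14.8 CPM. Of the reads of this pair, 94.9% (exact 95% interval 93.4 to 96.2) and 91.6% (90.1 to 92.9) were from H2-Eb1. In DC-like cells that share was 45.7% to 48.0% in the 4 pools, and in Mo-Mac-like cells 42.4% to 47.5%, so the neutrophil-like pools lay far outside both ranges. The I-A pair was less even too, with 570 and 1653 reads of H2-Aa against 208 and 621 of H2-Ab1. In DC-like cells of the Ccr2-/- pools these were 27648 and 58914 against 25613 and 50451. H2-DMb2 held 62.9% and 69.6% of the reads of the near-identical pair H2-DMb1 and H2-DMb2 in the neutrophil-like cells, against 16.6% to 22.0% in DC-like cells and 13.2% to 22.8% in Mo-Mac-like cells. Other low-level types had such an excess on Ccr2-/- day 3, with H2-DMb2 against H2-DMb1 reads of 17 and 2 in natural killer or innate lymphoid-like, 11 and 2 in T cell-like and 141 and 98 in fibroblast-like cells. On Ccr2-/- day 5 these were 13 and 2, 19 and 53, and 118 and 133. In the neutrophil-like cells Ciita had 1 read on day 3 and 6 on day 5. The Mo-Mac and DC markers summed to 1004 and 922 CPM in the neutrophil-like cells above 1000 CPM and to 664 and 855 CPM in the others, and their part in the result was not tested. The WT pools held 53 and 6 neutrophil-like cells, and in the former 1 cell held 74.0% of the class II reads, so no comparison by genotype was made.

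B cell-like cells of the Ccr2-/- pools shared the excess of H2-DMb2. H2-DMb2 held 84.3% (exact 95% interval 71.4 to 93.0) of the H2-DMb pair on Ccr2-/- day 3 and 80.0% (73.4 to 85.6) on Ccr2-/- day 5, from 51 and 180 reads, while H2-Eb1 held 42.9% and 49.2% of its pair, within a few points of DC-like cells. In the 3 B cell-like cells of WT day 3, 2 reads were from H2-DMb2 and 8 from H2-DMb1. These 2 H2-DMb genes are so alike that their reads may be divided wrongly. Ciita was at 619 and 605 CPM in these cells, above the 259 to 309 CPM of DC-like cells, and had 0 reads in the 3 B cell-like cells of WT day 3, where a floor of 3 reads is 83.2 CPM. H2-Ob, a chain of the H2-O inhibitor of H2-DM, was at 1069 and 202 CPM in the B cell-like cells of Ccr2-/- day 3 and day 5, at 12.3 to 31.2 CPM in DC-like cells and at 0.88 CPM or less in Mo-Mac-like cells.

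**Figure D5:**
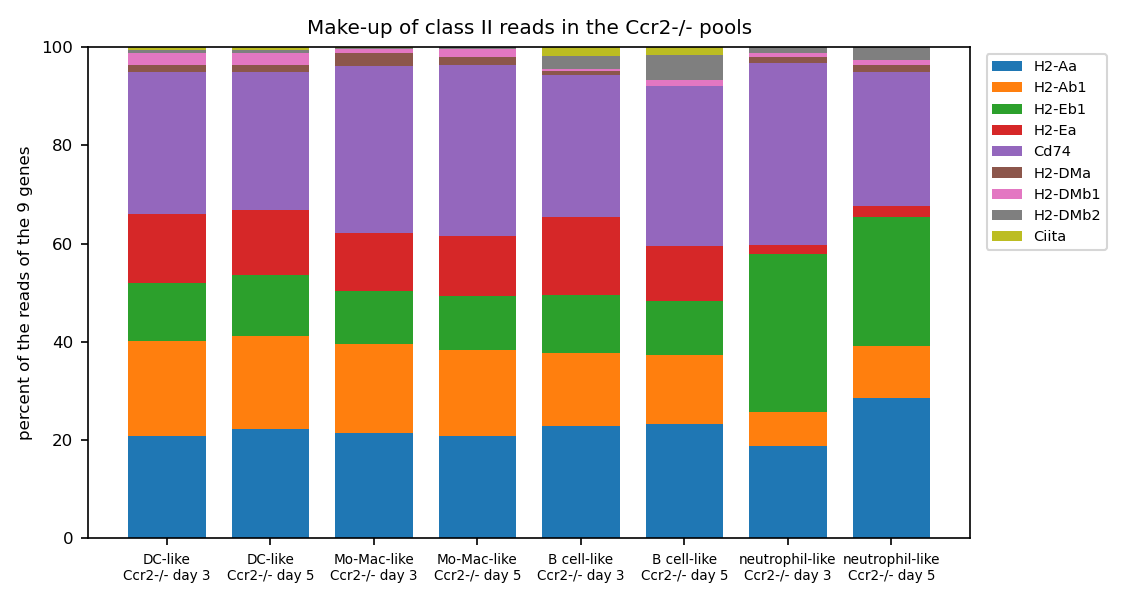
Percent of the reads of the 9 genes that came from each gene, in 4 cell types of the 2 Ccr2-/- pools. Shares of reads depend on transcript length as well, so a gene is to be compared between bars and not with its neighbours. In neutrophil-like cells H2-Eb1 takes 32.2% and 26.2% and H2-Ea 1.72% and 2.41%, whereas in DC-like cells these genes take 11.8% and 12.3%, and 14.0% and 13.3%.

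Other genes of antigen presentation had smaller median differences than the members in Mo-Mac-like cells. In DC-like cells the class I and interferon gamma lists had larger negative ones, and the co-stimulation list and Marchf1 positive ones larger in size. The difference between lists was not tested. Of 9 class I presentation genes all were tested in Mo-Mac-like cells, none was called for genotype and all 9 had negative log2 differences, with a median of -0.63 beside -0.03 for all genes tested and -1.82 for the members. Among them H2-D1, a classical class I heavy chain, was at 2884 and 3430 CPM in the WT pools and 1771 and 2195 in the Ccr2-/- pools (log2 difference -0.63, SE 0.13, edgeR adjusted p = 0.0968). B2m, the light chain of class I, was at 3753 and 4095 against 2623 and 3429 CPM. In DC-like cells 8 of the 9 had negative differences, with a median of -0.40 beside -0.02 for all genes tested and -0.04 for the members. The 7 genes of class II promoter control (Rfx5, Rfxap, Rfxank, Nfya, Nfyb, Nfyc and Creb1) had a median of -0.54 in Mo-Mac-like cells and 0.03 in DC-like cells, with none called.

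The genes that cut and load class II peptides, and those of co-stimulation, were not called either. Of the former, 4 of 6 were tested in Mo-Mac-like cells, 3 with negative differences and a median of -0.58, and all 6 in DC-like cells with a median of -0.02. The 4 co-stimulation genes had medians of -0.28 and 0.20 in these types, and Marchf1, which directs class II for turnover, had differences of -0.12 and 0.40. Ctss, the protease that trims the invariant chain in DCs and macrophages, in Mo-Mac-like cells was at 2420 and 3433 CPM for WT and at 1615 and 2110 for Ccr2-/- (log2 difference -0.59, SE 0.14, edgeR adjusted p = 0.107). Lgmn, a lysosomal protease, was at 2691 and 3411 against 3338 and 3863 CPM, with a difference of 0.29 (SE 0.13, edgeR adjusted p = 0.333). Cd83, a surface protein that keeps class II on the cell, was at 139 and 258 against 88.1 and 69.3 CPM (-1.22, SE 0.30, edgeR adjusted p = 0.120). Of the interferon gamma axis, which induces Ciita in macrophages, 6 of 7 genes were tested in Mo-Mac-like cells, 5 had negative differences and the median was -0.48, with 5 of 6 and a median of -0.74 in DC-like cells. Ifng itself was at 0.31 CPM or less there.

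The 9 members followed one another over cell types and pools. Over 48 profiles of at least 20 cells from 15 cell types, the correlation (Pearson's r of log2(CPM + 1)) of each member with the members' mean profile ran from 0.888 for H2-DMb2 to 0.985 for H2-Aa, and was 0.925 for Ciita. Among pairs of members it ran from 0.789 for H2-DMa with H2-DMb1 to 0.979 for H2-Aa with H2-Eb1. Of the other genes among the 17213 compared, those most like the mean profile were Clec4b1 (0.886), Tnip3 (0.863), Ptpro (0.839), Tifab (0.827), Hepacam2 (0.826), Pkib (0.824), Gm13373 (0.820), Aif1 (0.819), Dpep2 (0.818) and Fgd2 (0.813). Clec4b1, a C-type lectin gene, had a median of 77.8 CPM over the DC-like pools and 4.36 over the Mo-Mac-like ones. The class I genes H2-D1 and B2m were at 0.328 and 0.227. All profiles come from 1 library and pools of very unequal cell number, so these values describe the order of the profiles and carry no p-value.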

How the data were processed

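The 9 members and all lists were chosen with earlier results of these data known. Per the submitters' processing notes and the study's methods, adapters were removed with cutadapt and reads aligned with Bowtie2 to mouse RNA of the GRCm38.p6 build. The authors deposited whole-number read counts per gene and barcode from a BD Rhapsody library made by TAS-Seq, without collapsing reads to molecules, and a matrix of hashtag read counts. BALB/c reads that differ from the C57BL/6 reference may be lost at polymorphic H2 genes, and reads of H2-DMb1 and H2-DMb2 may be exchanged. Of the 8953 barcodes, 8696 were in both matrices. A barcode was assigned to a pool when its top hashtag had at least 10 reads and at least 3 times the next of the 4 (1 added to each), which left out 760 barcodes with few hashtag reads and 570 with several. Another 9 hashtag columns were not used. Barcodes with at least 200 genes and at most 20% mitochondrial reads were kept. Doublets within a pool were not called. Cells were normalised and clustered without the listed genes in scanpy 1.11.5 (2000 variable genes, 30 components, 20 neighbours, Leiden resolution 1) and named from fixed markers. Clusters on a written list, whose leading genes were judged to go against the best marker list, were left unnamed. Counts summed per type and pool were tested with the quasi-likelihood test of edgeR 4.0.16 (TMM, filterByExpr, genotype and day as terms, Benjamini-Hochberg adjustment over all genes tested, threshold 0.05), checked on simulated counts. DESeq2 1.42.0 was an alternative. Named besides the members and lists were the 10 genes most like the members' mean profile that reach 10 CPM in a profile. Intervals are exact 95% intervals and cover counting error only, and the floor is 3 reads. Each group had 1 pool, so no replicate animals entered any test.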

Additional observations from a re-analysis of the deposited data

How the results depend on the processing

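In Mo-Mac-like cells the 122 genes called for genotype became 1294 with no filter, 667 with DESeq2, 81 at a hashtag ratio of 10, 0 without cells over 100000 reads and 13 without the cell with most class II reads in each pool, and the 7 members called became 0 and 2 in the last 2 settings. The 0 genes called there for day became 300 with no filter and 95 with DESeq2. In DC-like cells the 2 genes called for genotype became 10 with library sizes only, 226 with no filter, 83 with DESeq2, 58 at a hashtag ratio of 10 and 1 without cells over 100000 reads, and the 2 called for day became 33 with no filter, 13 with DESeq2, 14 at a ratio of 10 and 1 without cells over 100000 reads. In fibroblast-like cells the 0 genes called for genotype became 537 with no filter and 1894 with DESeq2, with 1 and 2 members among them, and the 0 for day became 152 with DESeq2. In T cell-like cells the 1 gene called for genotype became 11 with no filter, 4 with DESeq2, 2 at a ratio of 10 and 0 without the largest cell. The 9 called for day became 18 with no filter, 5 without cells over 100000 reads and 1 without the largest cell, and the 5 members became 2 and 0 in the last 2. In blood endothelial-like cells the 7 genes called for genotype became 1 with library sizes only, 54 with no filter, 94 with DESeq2 and 2 without the largest cell, with 0, 5, 5 and 1 members in place of 3. The 2 called for day became 1 with library sizes only, 7 with no filter, 17 with DESeq2, 1 at a ratio of 10 and 1 without the largest cell. The WT to Ccr2-/- ratio of the summed level in fibroblast-like cells moved from 4.30 to 6.57 with clustering at resolution 2, and that in Mo-Mac-like cells from 3.77 to 2.22 with clusters weighted alike and 1.47 with their DC-like cells counted too.

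Besides the weighting of clusters alike, described with the clusters, single members turned direction in few settings. In DC-like cells without cells over 100000 reads, the genotype difference (log2) was 0.052 for H2-Ab1, 0.012 for H2-Ea and 0.0067 for H2-Eb1. Without the largest cell, the day difference in T cell-like cells was -0.37 for H2-Aa, -1.40 for H2-Ab1 and -0.83 for H2-Ea. In blood endothelial-like cells the genotype difference of H2-DMb1 was 0.10 with DESeq2 and 0.93 without the largest cell. Where a setting removes cells or genes, fewer were tested by construction, and otherwise the cause was not tested. The settings without the largest cell and with clusters weighted alike were chosen after seeing the data, as was the fit of Mo-Mac-like against DC-like cells. Cells over 100000 reads were not left out of the edgeR fits of fibroblast-like and blood endothelial-like cells, but were from the fibroblast-like levels, where the ratio was 3.10. No fit without 1 pool was made, since it would leave no residual degree of freedom. No paired analysis was possible because the pools carry no replicate numbers, beyond the day term, which compares the genotypes within a day. Depth limits the low-level members, as 3 reads in the neutrophil-like cells of WT day 5 are 32.4 CPM.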
